A study of Mus musculus with 33 samples.

Results

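Enterochromaffin (EC) cells are the serotonin-making endocrine cells of the gut lining. They were taken here as cells with at least 1 UMI (a counted RNA molecule) in 4 or more of the 11 endocrine genes Chga, Chgb, Neurod1, Fev, Cpe, Pcsk1, Scg3, Rfx6, Isl1, Cryba2 and Pax6, in which UMIs of Tph1 plus Tac1 outnumbered those of Gcg plus Pyy plus Insl5. The rule found 161 EC cells among 23762 cells (0.678%). A further 83 endocrine cells had more UMIs of Gcg, Pyy and Insl5 (L-type), 41 had equal numbers, and 23477 cells met fewer than 4 of the 11 genes and are called non-endocrine. The cells came from crypts of cecum, proximal colon and distal colon in 11 wild-type female C57BL6/J mice, 5 young (8 to 20 weeks) and 6 old (90 to 108 weeks), with 1 single-cell library per mouse and compartment. Crypts were made into single cells, labelled with hashtag antibodies, sorted for the epithelial surface protein EpCAM and captured with the 10X 3' v2 or v3.1 kit, so cells outside crypts or lost in dissociation are not represented. EC cells numbered 75 in the cecum, 54 in the proximal colon and 32 in the distal colon, and 73 came from young and 88 from old mice.

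In EC cells, the enzyme Tph1 hydroxylates tryptophan, Ddc converts the product to serotonin, and a vesicular transporter loads it into granules that hold chromogranins. Serotonin released toward nerve endings and blood drives gut motility and secretion and signals to sensory nerves. Many EC cells also make tachykinins such as substance P from Tac1. EC cells arise from crypt progenitors through Neurog3 and a series of further transcription factors, and they read the gut contents and mechanical force through receptors and ion channels.

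The genes that define the label have start sites of different make-up, and the 150 bases before the start are shown for the enzyme Tph1 at its 2 RefSeq starts and for Chga, Chgb and Pcsk1, the granule genes that hold a shared motif (RefSeq, GRCm38.p6). Tph1 lies on the minus strand, with windows chr7:46672538-46672687 and chr7:46667378-46667527. Chga has chr12:102554791-102554940, Chgb has chr2:132781492-132781641 and Pcsk1, a prohormone convertase, has chr13:75089707-75089856, all on the plus strand. Capitals mark TGACGT or its reverse complement ACGTCA, a string within the cAMP response element, a motif to which CREB-family factors bind. In Chgb and once in Pcsk1 both overlap as 1 palindrome.
Tph1, upstream start: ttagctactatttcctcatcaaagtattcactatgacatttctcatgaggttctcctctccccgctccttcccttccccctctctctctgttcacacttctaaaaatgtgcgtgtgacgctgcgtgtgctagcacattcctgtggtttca
Tph1, downstream start: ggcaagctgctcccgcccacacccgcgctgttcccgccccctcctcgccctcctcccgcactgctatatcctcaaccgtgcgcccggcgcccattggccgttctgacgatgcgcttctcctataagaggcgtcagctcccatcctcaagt
Chga: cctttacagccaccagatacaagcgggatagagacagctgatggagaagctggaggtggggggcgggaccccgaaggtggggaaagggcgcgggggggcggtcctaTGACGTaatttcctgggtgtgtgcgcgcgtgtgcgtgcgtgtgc
Chgb: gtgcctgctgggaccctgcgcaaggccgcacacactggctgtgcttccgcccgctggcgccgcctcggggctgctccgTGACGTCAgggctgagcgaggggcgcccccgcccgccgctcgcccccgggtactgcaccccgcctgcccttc
Pcsk1: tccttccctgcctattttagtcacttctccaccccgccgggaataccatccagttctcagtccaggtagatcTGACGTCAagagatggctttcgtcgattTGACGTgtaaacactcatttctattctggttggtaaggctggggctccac
The string was present in these 3 granule genes. It was in no window of the other 11 of the 14 EC genes found in the promoter table (17 were looked up). Among those 11 were Tph1, Ddc, Gch1, Tac1 and Lmx1a. The string occurred on either strand in 5.15% of 32851 windows of that length. The shorter TGACG, without the last T, stands in both Tph1 windows and in the Gch1 window. The contrast between genes therefore holds for the longer string only. A match is a string of letters and not a measured site.

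Library size bears on every value below. Libraries held 18 to 3403 cells and 536778 to 21288806 UMIs. Mice fell into a high-depth set (Young 1 to 3 and Old 1 to 3, median 28056 to 36341 UMIs per cell, 23 EC cells among 3627 cells) and a low-depth set (Young 4 and 5, Old 4 to 6, median 3982 to 10039 UMIs, 138 EC cells among 20135). EC cells occurred in 24 of 33 libraries and 10 of 11 mice, Old 2 having none. Libraries shared 226 cell barcodes, and no barcode was shared between 2 EC cells, although 5 EC barcodes also occurred in another library. EC cells held fewer UMIs than their neighbours: the median was 3737 against 7997 in non-endocrine cells, 12336 against 30305 in the high-depth set, and 3333 against 7094 in the low-depth set. In all, 135 of 161 EC cells lay below the median of their library, and only 1 exceeded 2 times that median. The median share of UMIs from mitochondrially encoded genes was also lower, 4.92% against 7.11% in the high-depth set and 3.57% against 5.21% in the low-depth set.

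The label was checked against its 4 markers, all of which the rule used, so the values are a description. Chga and Chgb, which code for chromogranin A and secretogranin 1, were each detected in 161 of 161 EC cells, Tph1 in 153 and Tac1 in 98, and 90 cells had all 4. Non-endocrine cells, although deeper, had a UMI of Tph1 in 1.16%, of Tac1 in 3.90%, of Chga in 6.73% and of Chgb in 10.4% of cells. No L-type hormone UMI was present in 142 EC cells. The excess was narrow in some cells: Tph1 plus Tac1 amounted to a median of 16 UMIs (1 to 416), and 22 cells had 3 or fewer.

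At the edge of the rule, the 32 EC cells with exactly 4 of the 11 genes had, in CPM (UMIs of a gene scaled to a fixed total of their summed UMIs), 3439 CPM of Tph1, 11720 of Chga and 15080 of Chgb. The 32 cells with 3 of the 11 genes and the same Tph1 and Tac1 excess, which were left out, had 246 CPM of Tph1, 950 of Chga and 1374 of Chgb. Their median was 9416 UMIs per cell against 2509 in the cells just inside, so the cells just outside were deeper. The rule used Tph1, Chga and Chgb, so their lower levels just outside are a description and not support for the edge. The serotonin genes Ddc and Slc18a1, not used by the rule, stood at 458 and 268 CPM just inside and at 64.9 and 34.3 CPM just outside.

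Summed over compartments, each set of markers of other epithelial cells took a smaller share of EC than of non-endocrine UMIs. The 12 goblet markers took 0.592% of summed EC UMIs and 1.97% of non-endocrine UMIs, with the median cell at 0.299% and 0.294% and the highest EC cell at 13.4%. The 12 colonocyte markers took 0.445% against 1.56%, the 12 cycling markers 0.0759% against 0.122%, and the 12 tuft markers 0.0140% against 0.0162%. In the median mouse 6 colonocyte markers were at least 4-fold lower and 2 at least 4-fold higher. Krt20 had 1045, 979 and 1163 CPM in cecum, proximal and distal EC cells against 133.5, 140 and 79.7 in non-endocrine cells. Tuft markers took 0.035% against 0.0117% in the distal colon, where 31 of 33 Dclk1 UMIs lay. In the cecum they took 0.012% against 0.0163%, and in the proximal colon 0.00574% against 0.0204%. Of the 12 leukocyte markers 9 were at 0, including Cd3e and Trac. The 12 took 0.00278% of summed EC UMIs against 0.0027% of non-endocrine UMIs, so this list was not lower in EC cells. Its shares were 0.00641% against 0.00201% distally, 0.00208% against 0.00317% for cecum and 0.00168% against 0.0027% for proximal colon. EC cells held 18 UMIs of Cd74, and 9 of Ptprc, all distal. Of the 9 stromal and neural markers 5 were at 0, including Col1a1 and Plvap. The 9 together took 0.0336% of EC and 0.000438% of non-endocrine UMIs, and EC cells held 320 UMIs of Vim, 12 of Pecam1 and 5 of Elavl4. The part of such cells in the results below was not tested unless a value is given.

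EC cells were then set against the non-endocrine cells of the same mouse, in the 7 mice with 5 or more EC cells (Young 3 to 5, Old 1, Old 4 to 6). The 5 EC cells of Old 1 were all distal, whereas its non-endocrine cells came from 3 compartments. Mouse and compartment cannot be told apart in the EC values of Old 1. UMIs were summed per mouse and class, and a ratio is the median over mice of the log2 ratio of CPM plus 1. Because the rule selected the cells on this contrast, no test was made. Of 8704 genes at 10 CPM or more in the median mouse in either class, 507 (5.82%) were at least 4-fold higher in the median mouse and 280 (3.22%) at least 4-fold lower, and nothing is read from these shares. A gene that reaches 10 CPM only in EC cells had to lie high there, so the counts by list below describe the cells and support nothing.

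The serotonin pathway was present from synthesis to storage. Tph1, the rate-limiting enzyme (chr7:46644641-46672537, GRCm38), stood at 264 to 6075 CPM with a median of 4884, against 1.40 CPM in non-endocrine cells; Old 1 and Young 5, with 264 and 623 CPM, lay far below the other 5 mice, which began at 3257. Ddc, the decarboxylase, ranged from 227 to 954 CPM with a median of 762 against 37.6, a log2 ratio of 4.14, and Young 5 was lowest. Gch1, which makes the first step toward the tetrahydrobiopterin that Tph1 needs, ranged from 116 to 480 CPM, median 277 against 14.6. In these 3 genes the EC range lay above the non-endocrine range in all 7 mice.

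The later steps of that cofactor pathway did not stand apart in the same way. Qdpr, which regenerates it, had a median of 241 CPM against 135, Pcbd1 212 against 148, Pts 112 against 99.9, and Spr 99.1 against 144. Of the vesicular monoamine transporters, Slc18a1 (VMAT1) was the one detected in quantity, at 132 to 425 CPM with a median of 235 against 1.06, a log2 ratio of 6.87. Slc18a2 (VMAT2) had 0 UMIs in 4 of 7 mice and at most 23.1 CPM, in Young 3. Slc18a1 was thus detected in EC cells of every mouse and Slc18a2 in 3, with 6 Slc18a2 UMIs over all EC cells. The sums of these mice held 52965 (Young 5) to 242029 UMIs (Young 4), so 0 UMIs does not show that the RNA was absent.

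Genes of serotonin removal differed among themselves. Maoa, the mitochondrial oxidase that degrades serotonin, was lower in EC cells of 7 of 7 mice, with a median of 149 CPM (28.9 to 264) against 393 (226 to 610), whereas Maob, the related oxidase, had 46.2 against 17.7 and was higher in 6 of 7. Slc6a4, the serotonin reuptake transporter, had 1 UMI in EC cells, in Young 3, and a median of 4.18 CPM in non-endocrine cells. Among transporters of aromatic amino acids, Slc3a2 stood at 66.1 against 42.9 CPM, Slc7a5 at 18.5 against 3.42 and Slc16a10 at 18.5 against 6.17, while Slc7a8 and the melatonin enzyme Asmt had a median of 0. The list has 19 members, of which Tph2 and Aanat were not analysed here. Of the 12 members outside the rule and at 10 CPM or more, 3 were at least 4-fold higher and none was that much lower. The plot of CPM by mouse shows these genes beside those of the other lists.

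**Figure D1:**
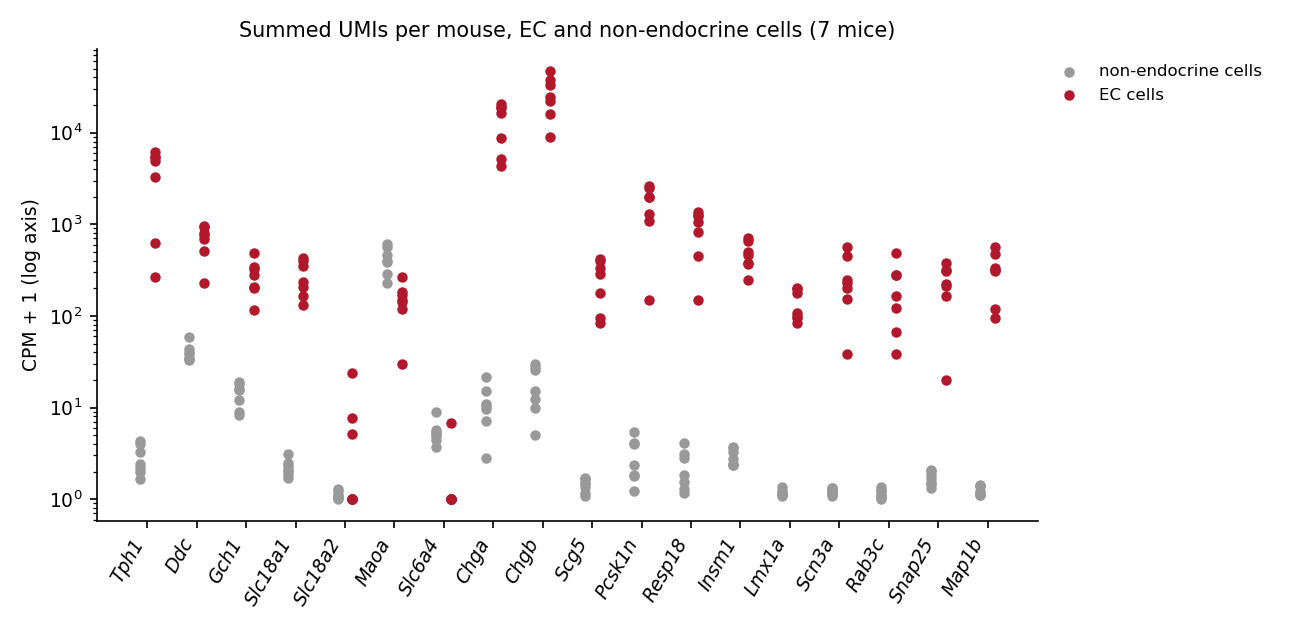
CPM plus 1 on a log axis for 18 genes, 1 point per mouse (7 mice) for EC cells (red) and for non-endocrine cells (grey). Tph1, Ddc, Gch1 and Slc18a1 are high in EC cells, whereas Slc18a2 and Slc6a4 sit at or near 0 and Maoa lies lower in EC cells (median 149 CPM against 393).

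Granule proteins gave the highest levels. Chgb ranged from 8968 to 47430 CPM with a median of 24540, and Chga from 4342 to 20340, median 16450. All 10 of the granule genes outside the rule and above 10 CPM were at least 4-fold higher, among them Pcsk1n, an inhibitor of the convertase Pcsk1, at 1967 CPM against 1.39, and Resp18, a granule protein, at 1053 against 0.829. Scg5, a chaperone of the convertase Pcsk2, stood at 283 against 0.454 CPM, and Pam, which amidates peptides, at 314 against 20.6. Sct, the hormone secretin, had a median of 3149 CPM against 255 but ran from 49.6 CPM in Old 1, below the 67.5 CPM of its non-endocrine cells, to 6805 in Old 5. Pooled by compartment, EC cells had 4834, 3368 and 1094 CPM of Sct in cecum, proximal and distal colon. The pools mixed mice unequally. In the edgeR fit described below, with the mouse as a block, proximal minus cecum had a log2 difference of 0.443 (SE 0.722, adjusted p = 0.999). The pooled order of cecum and proximal colon was thus not shown within mice.

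Of 20 endocrine transcription factors outside the rule and above 10 CPM, 16 were at least 4-fold higher and 1 lower. The one lower was Atoh1, a factor of the secretory lineage, at 26.8 against 73.4 CPM. Insm1, a zinc-finger factor of endocrine differentiation, reached 245 to 706 CPM, median 462 against 1.72. Lmx1a, a homeodomain factor that acts on Tph1, reached 82.6 to 200 CPM, median 107 against 0.155, and Sox4 514 against 104. Foxa1 (168 against 36.8 CPM), Runx1t1 (94.2 against 0.176) and Nkx2-2 (75.5 against 1.04) followed in level.

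Of 18 sensing and excitability genes above 10 CPM, 15 were at least 4-fold higher and 2 lower. Scn3a, a voltage-gated sodium channel (chr2:65457118-65567627), stood at 37.8 to 562 CPM with a median of 228 against 0.237 CPM. Slc38a11, a putative amino acid transporter next to it on the map (chr2:65316430-65364034), stood at 181 against 0.0518 CPM, with 0 UMIs in Young 5. Ffar2, a receptor for short-chain fatty acids, had a median of 248 against 31.5, the calcium channel subunit Cacna1a 134 against 5.77 and the potassium channel Kcnb2 110 against 0.142. Trpa1, an irritant-sensing channel described in EC cells, was named after its values were seen: it had no UMI in 161 cells, which allows up to 1.86% of EC cells with a UMI and covers counting error only. In the exocytosis list, 14 of 21 genes were at least 4-fold higher, led by the SNARE protein gene Snap25 (220 against 0.674 CPM) and the vesicle GTPase gene Rab3c (165 against 0.101). All 11 neuronal-type genes above 10 CPM were, led by Map1b, a microtubule protein (315 against 0.189 CPM).

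The 15 genes with the highest ratios at 50 CPM or more held, besides Pcsk1n, Resp18, Map1b, Scg5, Scn3a, Slc38a11, Insm1, Snap25, Rab3c, Slc18a1, Lmx1a, Olfr78 and Kcnb2, also Gsdma and Vim. Gsdma, a gasdermin, had 185 against 0.166 CPM. Vim, an intermediate filament gene best known from mesenchyme, had 277 against 0.765 CPM, while Col1a1, Col1a2, Plvap, S100b and Des, markers of stromal, vascular, glial and muscle cells, had 0 UMIs in all EC cells. Pecam1, an endothelial and leukocyte adhesion gene of the same list, had 12.4 against 2.09 CPM and was higher in 6 of 7 mice. Of 22 stress and dissociation genes 1 was at least 4-fold higher, the small heat-shock protein gene Hspb1 (208 against 1.71 CPM). The median log2 ratio of this list was 0.70 beside 0.14 over all genes, with Fos at 1942 against 797 CPM.

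Set against the 83 L-type cells, in 6 mice with 5 or more of each, EC cells differed in the following, again as a description. Of 8763 genes, 561 (6.4%) were at least 4-fold higher and 273 (3.12%) lower. Slc18a1 had a median of 222 against 5.33 CPM, Ddc 740 against 216 and Gch1 265 against 118, so RNA of the latter pair was found in L-type cells too, at lower levels. Lmx1a (143 against 0 CPM), Rab3c (143 against 0) and the mechanosensitive channel gene Piezo2 (58.7 against 0) were higher in EC cells of 6 of 6 mice. Lower in 6 of 6 mice were the nutrient receptor genes Gpr119 (0 against 128 CPM) and Ffar1 (0 against 99.0), the transcription factor gene Etv1 (23.7 against 335), and the granule genes Scg2 (0 against 221) and Scgn (18.7 against 502). Secretin, at 3688 against 8316 CPM, was lower in EC cells of 6 of 6 mice. The genes of this paragraph other than those of the serotonin list were picked after their values were seen.

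The share of EC cells among all cells was compared between compartments in libraries of 50 or more cells. Shares ranged from 0 to 2.14% in 10 cecum libraries (median 0.626%), from 0 to 2.0% in 8 proximal libraries (0.880%) and from 0 to 1.56% in 11 distal libraries (0.402%), so the ranges overlapped throughout. Within mice, the distal share was lower than the cecum share in 8 of 10 mice and higher in 1, by 0.351 percentage points on average (SE 0.205), and an exact two-sided sign-flip permutation test over mice gave p = 0.129 (adjusted over the 3 pairs 0.193). Within the low-depth and the high-depth set the mean difference was -0.486 and -0.216 points. Proximal minus cecum was -0.174 points (7 mice, exact permutation p = 0.469) and distal minus proximal -0.209 points (8 mice, exact permutation p = 0.125, adjusted 0.193). One mouse decided the first of these: without Old 1, whose 76 cecum cells held no EC cell, the difference was -0.478 points (exact permutation test, adjusted p = 0.0234).

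As a share of endocrine cells, EC cells were fewer in the distal colon than in the cecum of the same mouse, in each mouse with both values. In libraries with 5 or more endocrine cells, they made up 42.9 to 80.0% in 5 cecum libraries (Old 4 66.7, Old 5 80.0, Old 6 54.5, Young 4 74.4, Young 5 42.9), and 66.7, 33.3, 26.3, 63.6 and 20.0% in the distal libraries of Old 5, Old 6, Old 4, Young 4 and Young 5. The distal share was the lower one in 5 of 5 mice, by 21.7 points on average (SE 5.20; 42.0% against 63.7%). The exact permutation p was 0.0625, the smallest that 5 mice allow, and 0.188 after adjustment over 3 pairs, so the design could not reach 0.05. The proximal share lay 5.29 points below the cecum share (SE 7.67, exact permutation p = 0.5625) and the distal share 16.4 points below the proximal one (SE 7.06, lower in 4 of 5 mice, exact permutation p = 0.125).

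Age showed no difference beyond the spread of mice. After subtraction of compartment means, the EC share of all cells differed by -0.0874 points between old and young (SE 0.347; 6 and 5 mice; exact permutation p = 0.801), and leaving out Old 2 or Young 3 turned the sign. The share of endocrine cells differed by 3.76 points (SE 13.7; 4 and 3 mice; exact permutation p = 0.771), with plain means of 54.0% in old and 55.4% in young mice. The difference between distal colon and cecum was not shown to depend on age: for the share of all cells, old minus young of that difference was 0.587 points (exact permutation p = 0.198). Fewer EC cells and less RNA per EC cell cannot be told apart here, since the rule needs 4 genes to be detected.

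**Figure D2:**
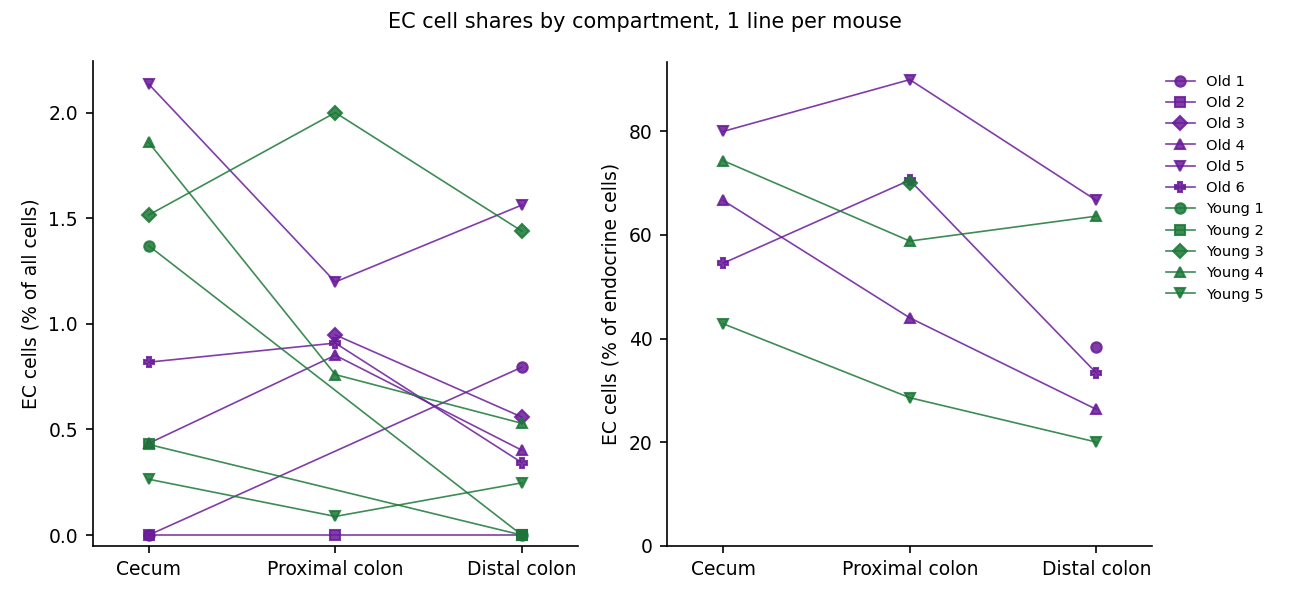
EC cells as a percentage of all cells (left, libraries of 50 or more cells) and of endocrine cells (right, libraries of 5 or more endocrine cells), by compartment, 1 line per mouse, old in purple and young in green. On the right every mouse with both values sits lower in the distal colon than in the cecum, while on the left the lines cross.

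Tph1 and Tac1 marked overlapping sets of EC cells, in values that the rule used and that are given without a test. In the cecum 37 cells had Tph1 alone, 36 both and 2 Tac1 alone, in the proximal colon 13, 39 and 2, and in the distal colon 13, 15 and 4. Thus 48.0, 72.2 and 46.9% of EC cells had both genes. With each cell thinned to 1500 UMIs the shares were 33.3, 57.4 and 28.1%, over cells pooled from all mice. Mice differed and contributed unequally: Young 4 gave 29 of the 75 cecum cells. As deposited, the share with both genes in cecum and proximal colon was 75.0 and 63.6% in Old 4, 25.0 and 55.6% in Old 5 and 44.8 and 90.0% in Young 4, and in Old 6 it was 6 and 10 of 12 cells. Thinned, it was 62.5 and 45.5%, 25.0 and 22.2%, 24.1 and 90.0%, and 33.3 and 83.3% in the same mice, so the order of the compartments was not the same in every mouse. The median library level of Tph1 was 4422 CPM in the cecum, 5709 in the proximal and 2927 in the distal colon, and that of Chgb 21200, 42840 and 14120 CPM, with ranges that overlapped between compartments.

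The share of Tac1 among Tph1 plus Tac1 UMIs varied more between mice than between compartments, from 2.55% to 79.0% in the 5 cecum libraries. Distal minus cecum was -7.97 points in the 3 mice with both (SE 19.1, higher in 2 and lower in 1). Old minus young was -21.4 points (SE 17.8; 4 and 3 mice). Both are given without a test, because the rule used the 2 genes.

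**Figure D3:**
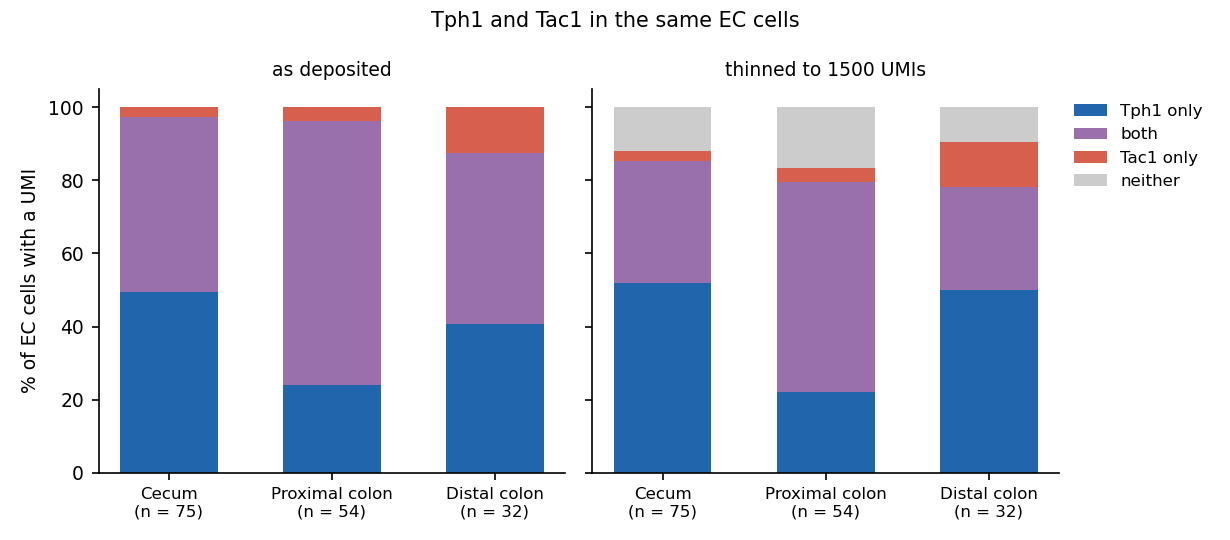
Percentage of EC cells with a UMI of Tph1 alone, of both genes, of Tac1 alone or of neither, by compartment with cells pooled over mice, as deposited (left) and with every cell thinned to 1500 UMIs (right). The pooled share with both is highest in the proximal colon on either side, 72.2% and 57.4%, although not in every mouse.

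Genes within EC cells were compared between compartments over 14 libraries with 5 or more EC cells, with the mouse as a block, using edgeR (quasi-likelihood, two-sided). The 16 genes of the rule were not tested. Between distal colon and cecum, 5 of 800 genes (0.625%) were higher in the distal colon and 0 (0.0%) lower at an adjusted p below 0.05, and 76 had an unadjusted p below 0.05. Old 4, Old 5 and Young 4 are the only mice with both compartments, so this contrast rests on them, and without Young 4 no gene passed. Without Old 4, Gadd45g, Tppp3, Piezo2 and Hibadh did not pass, without Old 1, Piezo2 and Hibadh did not, and without Old 6, Tppp3 and Hibadh did not. Low counts lie behind each value, since a sum held 5 to 29 cells.

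Piezo2, the mechanically gated channel by which EC cells sense force (chr18:63010213-63387183), rose in distal EC cells from a level near 0. EC cells of the 4 distal libraries had 463 CPM (Old 1), 272 (Old 4), 340 (Old 5) and 552 (Young 4). In the cecum the level was 17.0 CPM in Young 4 and 0 in Old 4, Old 5, Old 6 and Young 5, and in the proximal colon 17.7 in Young 3, 23.8 in Young 4 and 0 in the other 3. The groups did not overlap, and the log2 difference was 3.44 (SE 0.561, edgeR adjusted p = 0.0280). With 3, 3 and 85 UMIs in cecum, proximal and distal EC cells, Piezo2 passed the filter on low counts through its distal libraries. The p-value and the lack of overlap therefore describe the cells and are not independent support. A Piezo2 UMI was found in 25 of 32 distal EC cells (78.1%, Wilson 95% interval 61.3 to 89.0%), 2 of 75 cecum and 2 of 54 proximal cells. The cells are pooled over mice, and the interval covers counting error only. In non-endocrine cells of the distal colon, with a median of 8645 UMIs per cell against 3379 in EC cells, 0.836% had one. At 1500 UMIs per cell the distal EC share was 53.1%.

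Hoxb13, the homeobox gene of the most posterior gut (chr11:96194316-96197447), rose by a log2 of 3.79 (SE 0.583, edgeR adjusted p = 0.0225). With 10, 12 and 139 UMIs in cecum, proximal and distal EC cells, Hoxb13 also passed the filter through its distal libraries, so the same limit holds. Its distal levels were 496, 680, 1124 and 637 CPM in Old 1, Old 4, Old 5 and Young 4, against 0 to 97.7 CPM in the cecum and 0 to 64.1 in the proximal colon. Non-endocrine cells of the same distal libraries had the same regional pattern, as the grey points in the plot of levels by compartment show, so the pattern was not confined to EC cells. A UMI was found in 27 of 32 distal EC cells and in 85.6% of the deeper distal non-endocrine cells.

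The other called genes were Gadd45g, Hibadh and Tppp3. Gadd45g, a stress and differentiation gene (chr13:51846678-51848468), stood at 711, 2039, 1124 and 1868 CPM in the distal libraries of Old 1, Old 4, Old 5 and Young 4 and at 171 to 711 CPM in the cecum (log2 difference 2.49, SE 0.383, edgeR adjusted p = 0.0225). Its highest cecum value, 710.9 CPM in Old 6, and its lowest distal one, 710.5 CPM in Old 1, meet. Non-endocrine cells of the same libraries had 52.5 to 128 CPM of Gadd45g in the distal colon and 26.6 to 41.3 in the cecum, lower levels in the same order. Hibadh, a mitochondrial enzyme of valine breakdown (chr6:52546228-52640389), had 496, 884, 209 and 849 CPM distally in the same order and 54.9 to 184 in the cecum (2.18, SE 0.404, edgeR adjusted p = 0.0425). The Hibadh groups did not overlap. Hibadh had 60, 111 and 104 UMIs in cecum, proximal and distal EC cells. It passed the filter on low counts through its distal and proximal libraries. Its p-value and lack of overlap therefore describe the cells and are not independent support. Non-endocrine cells had 100 to 155 CPM of Hibadh in every compartment. Tppp3, a tubulin-binding protein gene (chr8:105467493-105471526), had 165, 408, 1307 and 1571 CPM distally against 48.9 to 413 in the cecum, which overlap (2.11, SE 0.346, edgeR adjusted p = 0.0258). Non-endocrine cells of the same libraries had 11.7, 70.9, 63.8 and 256 CPM of Tppp3 distally and 6.91 to 28.5 in the cecum, so the distal levels lay above the cecum range except in Old 1. Whether these differences differ from those of non-endocrine cells was not tested.

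Other genes of the lists did not pass. Klf6, of the stress list (log2 1.43, SE 0.292, edgeR adjusted p = 0.0716), Map1b (2.23, SE 0.476, adjusted p = 0.0878) and Olfr78 (2.33, SE 0.556, adjusted p = 0.15) had the lowest adjusted p-values among them. Ddc had a difference of 1.36 (SE 0.464, edgeR adjusted p = 0.365) and Sct of -2.36 (SE 0.854, adjusted p = 0.396). By list, none of 5 serotonin, 5 granule, 3 transcription factor, 2 exocytosis and 3 neuronal-type genes tested passed, with medians of 0.12, -0.09, 0.18, 1.39 and 1.28 beside 0.04 over all genes. Of 4 sensor genes 1 passed, Piezo2 (median 1.72), and of 4 Hox and regional genes 1, Hoxb13. None of 18 stress genes passed (13 above 0, median 0.43), and none of 5 goblet markers (5 above 0, median 0.91); their part in the called genes was not tested.

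The other pairs gave no call. Between proximal colon and cecum 0 of 800 genes passed with edgeR (0.0% in each direction, 27 at an unadjusted p below 0.05, 1 with DESeq2), and between distal and proximal colon 0 of 800 (0.0%, 52 at an unadjusted p below 0.05, 8 with DESeq2). In the second pair Hoxb13 (log2 3.50), Piezo2 (3.34) and Tppp3 (2.11) each had an edgeR adjusted p of 0.055. These pairs share libraries with the first.

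Several regional genes had too few UMIs for the test and are given by their summed counts; they were picked after their values were seen. Olfr558, a receptor for short branched fatty acids (chr7:102702215-102712064), had 27 UMIs in cecum EC cells, 74 in proximal and 0 in distal cells. Against the 3-count limit over all distal EC UMIs this is at least 12.0-fold higher in the proximal colon and at least 4.75-fold in the cecum. By library it was 231, 26.9, 321, 248 and 143 CPM in the proximal colon of Old 4, Old 5, Old 6, Young 3 and Young 4, 64.0, 54.9, 45.9, 39.7 and 0 CPM in the cecum of Old 4, Old 5, Old 6, Young 4 and Young 5, and 0 in all 4 distal libraries. A UMI was found in 26 of 54 proximal cells (48.1%), 10 of 75 cecum cells (13.3%) and 0 of 32 distal cells, which allows up to 9.38%. Of the deeper non-endocrine cells 0.00426% had a UMI of Olfr558.

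Its neighbour Olfr78, an acetate and propionate receptor gene (chr7:102738511-102759471), followed another pattern. It had 9, 56 and 43 UMIs in cecum, proximal and distal EC cells, in 7, 21 and 13 cells. Of the 54 proximal EC cells 15 held both receptors, 11 Olfr558 alone and 6 Olfr78 alone. In the distal colon all 13 cells with Olfr78 also held Piezo2, a gene found in 25 of all 32 distal EC cells. Counts of cells with 2 genes rise with depth, and no test was made.

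Some Hox genes set the distal EC cells apart from those of cecum and proximal colon. Hoxb7 and Hoxb8 each had 37 UMIs in the cecum, 46 in the proximal colon and 0 in the distal colon, at least 6.5-fold and 7.45-fold higher in cecum and proximal colon than distally. Hoxd11 and Hoxd13 had 10 and 11 UMIs in the distal colon and 0 in the others, at least 6.32-fold and 6.95-fold higher than in the cecum. Non-endocrine cells of cecum, proximal and distal colon had 60.6, 58.1 and 1.77 CPM of Hoxb7 and 45.9, 43.7 and 1.31 CPM of Hoxb8. They had 0.0986, 0.163 and 8.55 CPM of Hoxd11 and 0.251, 0.213 and 15.2 CPM of Hoxd13. Each of these genes thus set the distal colon apart in the same direction as in EC cells, and the pattern was not confined to EC cells.

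**Figure D4:**
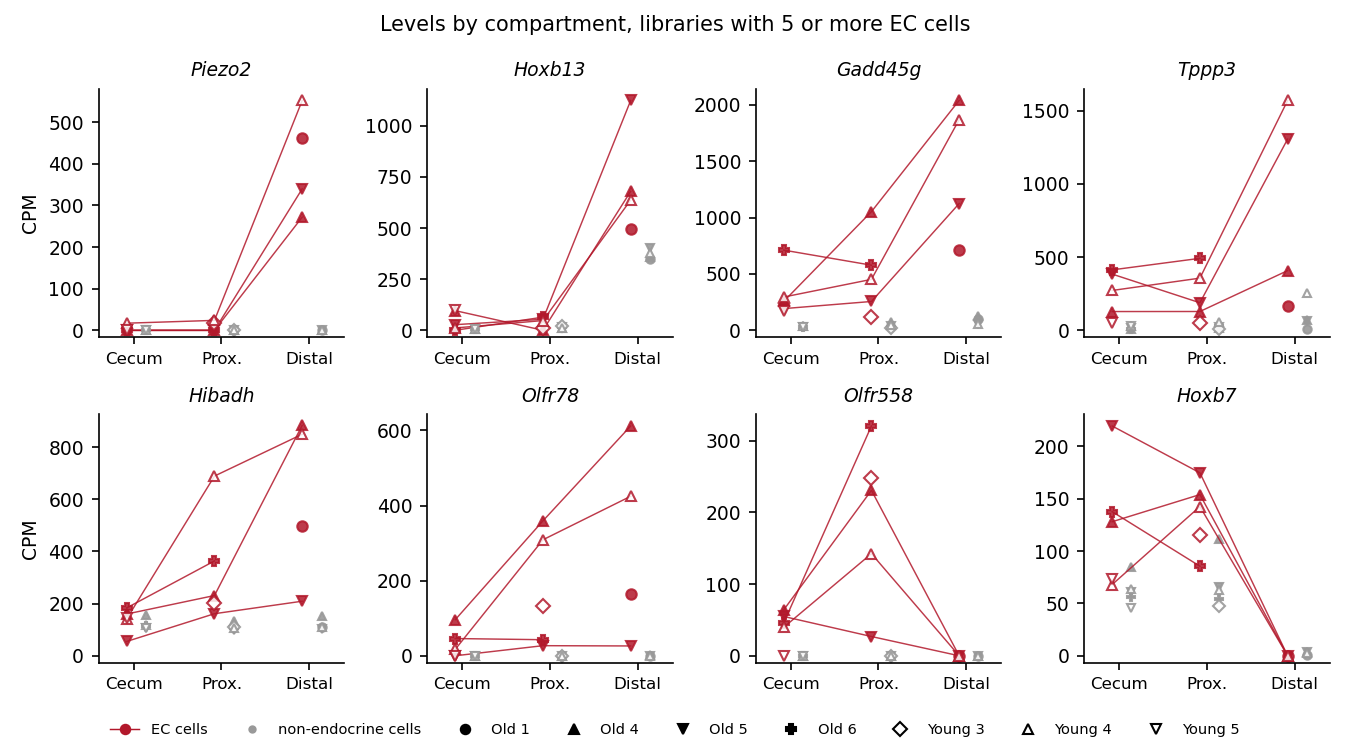
CPM of 8 genes by compartment in libraries with 5 or more EC cells, EC cells in red with lines joining libraries of 1 mouse and non-endocrine cells of the same libraries in grey; filled symbols are old and open symbols young mice. Piezo2 appears in distal EC cells (272 to 552 CPM) with non-endocrine cells near 0, Olfr558 is 0 in all 4 distal libraries, and Hoxb13 and Hoxb7 set the distal colon apart in both kinds of cells.

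Old and young EC cells were compared over 7 mice, UMIs summed per mouse, with the depth set as a term in edgeR. The sums mixed compartments unequally: distal cells made up 100% of EC cells in Old 1, and from 8.33% (Young 5) to 27.6% (Old 5) in the other mice. This fit had no compartment term, so differences with age can hold differences between compartments. Hoxb13, a gene higher in distal EC cells, had a log2 difference of 1.497 (SE 0.334, edgeR adjusted p = 0.408). Of 1964 genes, 0 (0.0%) were higher and 1 (0.0509%) was lower in old mice, with 98 at an unadjusted p below 0.05. The lower gene was Retnlb, which codes for a secreted antibacterial protein of goblet cells (chr16:48816856-48818892), with a log2 difference of -2.94 (SE 0.408, edgeR adjusted p = 0.0425). EC cells held 207 Retnlb UMIs in Young 4, 19 in Young 5 and 0 in Young 3, and 0, 9, 9 and 4 in Old 1, Old 4, Old 5 and Old 6, so the age groups overlapped. In Young 4, 200 of the 207 lay in 1 cell, in which goblet markers took 7.27% of UMIs, and in Young 5, 16 of 19 lay in 1 cell with 13.4%. Without the 2 EC cells of 10 or more Retnlb UMIs, a comparison chosen after seeing the data, no gene passed. It was also lost without Old 5, Old 6 or Young 4.

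No member of the EC gene lists passed the test of age. None of 8 serotonin, 6 granule, 7 transcription factor, 8 sensor, 7 exocytosis, 5 neuronal-type and 20 stress genes tested passed, with medians of 0.03, -0.41, 0.24, 0.30, 0.32, 0.03 and 0.21 beside 0.01 over all genes. Ddc had a log2 difference of 0.45 (SE 0.349, edgeR adjusted p = 0.899), Slc18a1 -0.29 (SE 0.386, adjusted p = 0.916), Gch1 -0.17 (SE 0.366) and Maoa 0.13 (SE 0.411).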

How the data were processed

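Single-cell RNA-seq was made from EpCAM-sorted crypt cells of 3 compartments of 11 mice. The authors deposited raw UMI counts per gene and cell, 1 table per library with 21852 genes, made with Cell Ranger on mm10 per the submitters' processing notes. The Cell Ranger version, the filter that left no cell under 1559 UMIs or 1001 genes, the strand setting and the kit of each mouse are not given in the sources used here. Doublets were not removed, and leaving out cells above 2 times the median UMIs of their library was an alternative.

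The mouse was the replicate. The compartments of a mouse are paired per the labels. Counts of EC cells were summed per library (for age, per mouse) where at least 5 EC cells were present, filtered with filterByExpr, scaled by TMM, and tested with edgeR 4.0.16 (quasi-likelihood F test, prior count 2, R 4.3.3) under Benjamini-Hochberg adjustment over all genes. DESeq2 1.42.0 was an alternative. For age the depth set was a term, found by splitting the mice at the widest log2 gap of their median UMIs. The fits were tried on simulated counts, which had no mouse effects, unlike the data. For distal colon minus cecum 76.4% of genes changed 4-fold and 0.716% of unchanged genes were called. For age these shares were 100% and 0.593%. Shares were tested with exact two-sided permutation tests. Descriptive ratios used CPM plus a pseudocount of 1. Thinning drew 1500 UMIs per cell. A 0 was bounded at 3 counts, for counting error only. Gene positions are from GENCODE M21.

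The members and gene lists were chosen with earlier results of these data known. Named were all measured genes of the serotonin list, from each other list the called genes and up to 6 at the highest level in EC cells, up to 10 called genes per direction, and the 15 genes of highest ratio to non-endocrine cells at 50 CPM or more. Genes named outside this rule were chosen after their values were seen.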

Additional observations from a re-analysis of the deposited data

Results flagged for a closer look

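Among the 6 groups of libraries large enough to be examined for a library that lies apart, 1 did: in the proximal colon of old mice, the EC share of all cells was 0% in Old 2, while the nearest of the other 4 libraries had 0.851%. The gap was 0.71 of the range of the 5 libraries. Chance alone marks about 1 in 20 such groups. Old 2 had 359 cells in that library and no EC cell in any compartment, and its cecum held 1 L-type cell.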

How the results depend on the processing

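The results were recomputed under 427 combinations of result and alternative, of which 342 kept direction and side of the threshold. Sums of 5 to 29 cells per library and 5 to 46 per mouse limit the gene comparisons. The causes of the changes below were not tested, except that leaving out a mouse or raising a minimum leaves fewer samples.

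For distal colon minus cecum, edgeR called 5 genes. The count was 21 with no filter on low counts (9 higher, 12 lower), 1 with at least 3 EC cells per sum, 1 with 5 of 11 endocrine genes required, 3 in low-depth mice alone, 9 with DESeq2, and 0 (without Young 4) to 10 (without Old 5) when 1 mouse was left out. It was 5 with no replicate block, in which the pairing of compartments by mouse was ignored. For proximal colon minus cecum the count of 0 became 4 with no filter, 1 with DESeq2 and 0 to 5 without 1 mouse. For distal minus proximal colon it became 8 with no filter, 1 with at least 3 EC cells, 1 with 5 of 11 genes, 2 with no replicate block, 8 with DESeq2 and 0 to 3 without 1 mouse. With at least 10 EC cells per sum the 2 contrasts with the distal colon could not be fitted. For age the count of 1 became 27 with no filter (5 higher, 22 lower), 2 in low-depth mice alone and 0 to 4 without 1 mouse. It became 0 with 5 of 11 genes, without cells of very high UMIs, without EC cells of 10 or more Gip or Fabp6 UMIs or of 10 or more Retnlb UMIs (both added after seeing the data), with no depth batch term, and with mouse number as a replicate block (Retnlb adjusted p = 0.255). Young and old mice share only the number: same-numbered sums correlated by 0.18 and 0.24 in the 2 pairs.

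The EC share of all cells, distal minus cecum, passed without Old 1 (-0.478, the range without 1 mouse being -0.478 to -0.238 points) and with a higher library minimum (-0.367, adjusted p = 0.0469). Its age difference turned positive with 3 of 11 genes (0.0354), thinning (0.0374) and low-depth mice alone (0.337) and ran from -0.285 to 0.144 without 1 mouse. Its proximal minus cecum difference turned positive in high-depth mice alone (0.242) and with a lower library minimum (0.0400). The age difference in the share of endocrine cells was -9.32 under thinning and ran from -7.03 to 11.6 without 1 mouse. The Tac1 share, given without a test, distal minus cecum, became 11.6 with 5 of 11 genes and 20.1 under thinning, and -20.2 to 10.9 without 1 mouse; proximal minus cecum became 8.29 under thinning, 6.32 and 15.9 with a lower and a higher library minimum, and -8.13 to 11.9 without 1 mouse; distal minus proximal became 1.93 with 5 of 11 genes and 5.24 with no replicate block. The difference with age and mouse number as a replicate block was -0.0872 points for the share of all cells.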

Other observations

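Single EC cells held most of the RNA of some genes of other cell types. Gip, the hormone of K cells of the upper gut, had 1710 UMIs in all EC cells, of which 1678 came from 1 cell of the proximal colon of Young 5 with 6267 UMIs, 7 of Tac1 and 1 of Tph1. No other EC cell had more than 3. Fabp6, the bile acid binding protein of the ileum, had 795 UMIs, of which 740 came from 1 cecum cell of Young 4 with 12954 UMIs. The same cell held 698 of the 806 Reg3b UMIs, and it had 123 UMIs of Tac1 and 8 of Tph1. Both genes were picked after their values were seen.

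Nrp2, a neuropilin gene, had 1124, 951.5, 314 and 510 CPM in EC cells of the distal libraries of Old 1, Old 4, Old 5 and Young 4, against 0 to 171 CPM in the cecum and 0 to 265 in the proximal colon. The groups did not overlap, but Nrp2 did not pass the edgeR test of distal colon against cecum. Nrp2 passed the filter on low counts through its distal levels, so the lack of overlap describes the cells and is not independent support. Non-endocrine cells of these libraries had 16.6 to 70.2 CPM of it. Nrp2 was picked after its values were seen.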
